A study of Homo sapiens with 15 samples.

Results

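THP-1 cells given extracellular vesicles of Staphylococcus aureus that had been isolated by ultracentrifugation (SUC, 3 libraries) were compared with THP-1 cells given PBS (3 libraries), which is 6 of the 15 RNA-seq libraries of the series. The 6 libraries were taken by their labels, and all 17198 genes with enough reads are described. THP-1 is an established line of human acute monocytic leukaemia cells, labelled wild type and with no differentiating agent named, so every group is 1 cell line and not primary monocytes. The SUC cells received 10 μg/mL of vesicle protein for 6 h and the PBS cells received buffer. The study asked whether vesicles precipitated with ε-poly-L-lysine act on host cells as those pelleted by ultracentrifugation do. S. aureus vesicles from that precipitation (SPL, 10 μg/mL) and Escherichia coli vesicles from ultracentrifugation (EUC, 1 μg/mL), 3 libraries each, serve below only to show where SUC differed.

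Bacterial extracellular vesicles carry lipoproteins, wall fragments, proteins and nucleic acids of the cell that sheds them. In monocytes, lipoproteins of Gram-positive bacteria are sensed by TLR2 together with TLR1 or TLR6, and muramyl dipeptide from peptidoglycan is sensed inside the cell by NOD2. Signals from these receptors pass through MYD88, IRAK and RIPK2 to NF-kappa B and the MAP kinases, which switch on cytokine and chemokine genes together with genes that later shut the response down, while interferon made along the way acts on antiviral genes through STAT2 and IRF9 among other factors.

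Control sequences often tied to these programmes are shown in the promoters of 4 genes that rose strongly and were picked because they hold a match. The promoters of CXCL8, IL1B, TNF, ICAM1 and SOD2, which also rose, held no exact match to either motif in this window. The kappa B consensus was read strictly as GGGRNWYYCC (R is A or G, N any base, W A or T, Y C or T). Near matches, such as tggaatttcc in CXCL8 and tggaaattcc in ICAM1, were not counted, so these promoters are not shown to lack a kappa B site. Each stretch runs 5′ to 3′ on the gene's own strand, from 250 bases before to 50 bases after the RefSeq start (build GRCh38.p14), and capitals mark matches, on either strand, to the kappa B consensus or to the core of the interferon-stimulated response element, which reads GAAA, any 2 bases and GAAA again (TTTC, any 2 bases and TTTC on the other strand). NFKBIA (chr14:35404700-35404999, minus strand) holds 1 kappa B match and TNFAIP3 (chr6:137867009-137867308, plus strand) holds 2. CXCL10 (chr4:76023448-76023747, minus strand) holds 1 response element core, which is the one nearest the 5′ end, and then 2 kappa B matches. IFIT1 (chr10:89392373-89392672, plus strand) holds 2 response element cores, both read on the other strand.
NFKBIA: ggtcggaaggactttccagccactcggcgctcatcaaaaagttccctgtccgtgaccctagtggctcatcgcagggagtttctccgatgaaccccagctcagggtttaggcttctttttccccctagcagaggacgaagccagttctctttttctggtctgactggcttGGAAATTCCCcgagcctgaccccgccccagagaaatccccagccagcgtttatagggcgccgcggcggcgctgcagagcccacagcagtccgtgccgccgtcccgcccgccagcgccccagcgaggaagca
TNFAIP3: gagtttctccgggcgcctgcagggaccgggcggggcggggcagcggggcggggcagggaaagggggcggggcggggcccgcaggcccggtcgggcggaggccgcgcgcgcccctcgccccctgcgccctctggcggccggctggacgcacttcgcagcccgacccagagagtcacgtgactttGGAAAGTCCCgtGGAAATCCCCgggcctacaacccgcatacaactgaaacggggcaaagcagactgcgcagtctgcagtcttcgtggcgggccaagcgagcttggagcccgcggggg
CXCL10: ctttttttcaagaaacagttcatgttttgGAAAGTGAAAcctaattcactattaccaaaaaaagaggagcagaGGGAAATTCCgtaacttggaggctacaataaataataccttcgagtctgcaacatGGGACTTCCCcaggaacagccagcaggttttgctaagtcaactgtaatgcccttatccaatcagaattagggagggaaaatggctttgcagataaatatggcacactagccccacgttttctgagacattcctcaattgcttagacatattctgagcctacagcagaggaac
IFIT1: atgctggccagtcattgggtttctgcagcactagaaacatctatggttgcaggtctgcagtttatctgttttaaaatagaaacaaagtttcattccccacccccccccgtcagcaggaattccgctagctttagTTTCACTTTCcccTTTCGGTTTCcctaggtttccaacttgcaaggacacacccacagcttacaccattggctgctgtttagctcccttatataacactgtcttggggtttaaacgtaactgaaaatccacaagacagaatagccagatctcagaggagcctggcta
A kappa B match was present in 5.72% of all 27303 promoters of this length, in 6.69% of those of tested genes, in 11.8% of those of up-regulated genes (90 of 760 with a sequence) and in 6.89% of those of down-regulated genes (23 of 334). The response element core was present in 3.65% of all promoters, 2.93% of those of tested genes, 9.08% of those of up-regulated genes (69 of 760) and 2.40% of those of down-regulated genes (8 of 334). Among groups described below, 17 of 27 up-regulated interferon-stimulated genes held the core, and 7 of 19 up-regulated chemokines held a kappa B match. The 2 motifs do not overlap in these 4 promoters, and a match is a string of letters, not a measured site.

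The 6 libraries held 14399421 to 16045415 counted reads (median 15785224). Between 24662 and 25412 genes had a read in a library. Expression profiles correlated at 0.990 to 0.991 within PBS, 0.982 to 0.989 within SUC and 0.942 to 0.954 between the groups (Pearson's r across genes, which are not independent replicates, of log2 CPM, the read count relative to the TMM-scaled library size). SUC3 stood somewhat apart from SUC1 and SUC2, with 8.14% of its reads on ribosomal protein genes against 5.99% to 7.11% in the other libraries. Leaving it out gave 1139 up-regulated and 478 down-regulated genes against the 1173 and 527 of the whole comparison. Of 10 monocyte markers 9 were tested, 2 were up (CD14 and SPI1) and 0 down (median 0.03), with 1 up without PBS1 and 0 up without SUC3. SPI1, the transcription factor that defines the lineage, stood at 456 to 487 CPM in PBS and 896 to 1083 CPM in SUC, and LYZ, encoding lysozyme, at 89.4 to 91.3 and 65.2 to 68.7 CPM. MNDA had a log2 fold change of -0.56 and CD68 was close to 0, with 3 and 4 reads per group. How reads of overlapping genes were counted is not known, so these few reads do not show that CD68 RNA was absent. Summed monocyte marker levels were 1352 to 1388 CPM in PBS and 1814 to 1972 CPM in SUC, of which SPI1 made up 456 to 487 and 896 to 1083 CPM. By adjusted p without the fold threshold, 3 of the 9 tested monocyte markers were up and 3 down. Of the 10 T and NK cell markers 4 were tested and 1 was called up (TRAC, 6 reads in PBS and 30 in SUC, a call lost without PBS1, PBS2, PBS3, SUC1 or SUC2), with CD3D, CD3E and CD3G at 0 reads in all 6 libraries. Of 7 B cell markers 2 were tested and 1 was up (PAX5, log2 fold change 1.26), with IGHM at 0 reads. Of 10 erythroid and platelet markers ITGA2B alone was tested and it was not called, and HBA1, HBA2 and HBB had 0 reads. Of 13 markers of fibroblasts, epithelium and endothelium 5 were tested and 2 were up (DCN, 1 read in PBS and 34 in SUC, and COL1A1), with EPCAM and COL1A2 at 0 reads. Summed levels in PBS and SUC were 23.9 to 27.4 and 26.4 to 29.2 CPM for T and NK cell markers, 9.47 to 11.1 and 12.9 to 19.8 CPM for B cell markers, 1.09 to 1.76 and 1.19 to 1.69 CPM for erythroid and platelet markers, and 306 to 314 and 214 to 240 CPM for fibroblast, epithelial and endothelial markers. The part of other cells in the results was not tested beyond these values. Fewer cells of a kind and less RNA per cell cannot be told apart in such bulk samples.

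In all, 1173 genes were up-regulated (6.82% of those tested) and 527 were down-regulated (3.06%), and the rises were larger than the falls. A gene was called, as 1700 were (9.88%), where its adjusted p did not exceed 0.01 and it changed at least 2-fold (edgeR's quasi-likelihood test, Benjamini-Hochberg adjusted over all 17198 genes). Without the fold threshold 2124 genes were up (12.4%) and 1573 down (9.15%). The median change among called genes was 2.14 on the log2 scale for rises and 1.40 for falls, while the median over all tested genes was 0.0067. By fitted fold, at least 8-fold changes were seen in 367 rising and 18 falling genes, and at least 64-fold changes in 69 rising genes and 0 falling genes. Of the rising genes 57 had no read in PBS, so their fitted folds depend on the small count added by the fit. ETV3L, with a fitted log2 fold change of 8.58, is among the 69, though its reads show only that it was at least 50-fold higher. The 3 SUC libraries all lay above the 3 PBS libraries for 1172 of the 1173 rising genes and all below for 527 of the 527 falling genes. Among all tested genes, 24.2% lay wholly above and 22.4% wholly below. Calling selects genes whose groups are apart, so the counts among called genes are not a separate result. Rising genes took 2.67% to 2.69% of all CPM in PBS libraries and 9.24% to 10.1% in SUC libraries. Falling genes took 2.49% to 2.56% in PBS and 0.888% to 0.967% in SUC. Protein-coding genes made up 929 of the rises and 420 of the falls, and long non-coding RNAs 181 and 91. All groups were labelled as triplicates with no word on separate cultures, so the p-values measure the spread between these libraries, which may be technical.

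**Figure D1:**
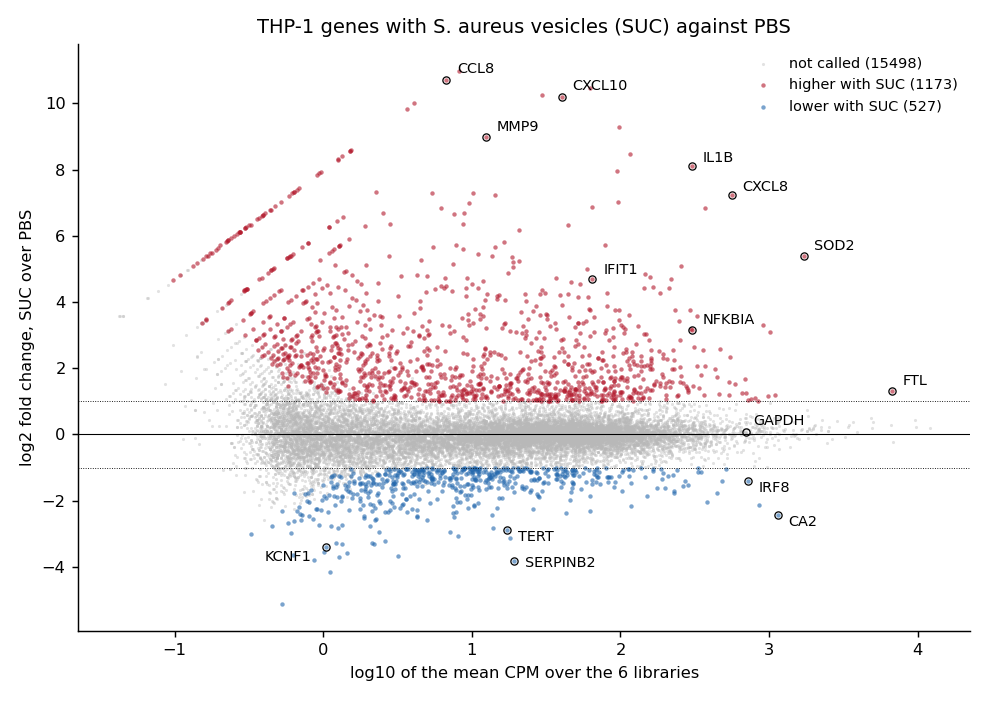
Each point is 1 of 17198 tested genes, with log10 of its mean CPM over the 6 libraries on the horizontal axis and its log2 fold change (SUC over PBS) on the vertical axis; red marks the 1173 genes called higher, blue the 527 called lower, and dotted lines the 2-fold threshold. The rises reach above 10 on the log2 scale, and the diagonal rows of red points at low CPM are genes with few or no reads in PBS, whose fitted fold depends on the small count added by the fit.

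The 8 protein-coding genes with the largest fitted rises, among those with a mean of at least 1 CPM and no overlap between groups, encode 6 secreted proteins. For genes with few or no reads in PBS the place in this order depends on the small count added by the fit. CCL8, a monocyte-attracting chemokine (ENSG00000108700, chromosome 17 from 34319435 to 34321402, plus strand, GRCh38), had 0 reads in the 3 PBS libraries and stood at 16.3, 10.4 and 13.5 CPM in SUC1, SUC2 and SUC3. That is at least 219-fold higher, taking 3 reads over the PBS group as the limit that a count of 0 allows (adjusted p = 3.54e-10). CXCL10, which draws T cells through CXCR3 (ENSG00000169245, chromosome 4 from 76021118 to 76023497, minus strand), stood at 0.064, 0.118 and 0 CPM in PBS and 78.4, 73.9 and 88.5 CPM in SUC. With 3 reads in PBS and 3672 in SUC, the ratio was 1321-fold with a 95% exact interval of 452 to 6406 for counting error only, and its promoter is the one printed above with both motifs.

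CCL4, which attracts monocytes, NK cells and T cells, rose from 0.448, 0.176 and 0.298 CPM to 175, 176 and 231 CPM (log2 fold change 9.28, SE 0.26, adjusted p = 4.85e-14). CCL4L2, its near-identical copy, rose from 0.0588 to 0.128 CPM to 109 to 151 CPM, and because reads can be split between the 2 copies, neither value is certain on its own. TNFAIP6, a hyaluronan-binding protein of inflamed tissue, had 2 reads in PBS and stood at 58.8, 50.4 and 68.3 CPM in SUC, a ratio with an exact interval of 403 to 12046. MMP9, a gelatinase, had 2 reads in PBS and stood at 30.1, 21.7 and 22.5 CPM in SUC, a ratio with an interval of 168 to 5035. VCAM1, an adhesion molecule for leukocytes, and ETV3L, an ETS-family gene, had 0 reads in PBS and were at least 49.6-fold and 50-fold higher in SUC. The lack of overlap between groups in these 8 genes was a condition of their choice.

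A total of 57 up-regulated genes had no read in the PBS group (35 protein-coding and 17 long non-coding), and 76 more had 1 to 3 reads. No down-regulated gene lost all its reads in SUC. The filter on low counts used all 15 libraries, so a gene could be tested through its reads in other vesicle groups. With the 6 libraries alone IL6, CCR7, ACOD1, PTGES, DCN and TRAC, among others, were not fitted. The largest rises in long non-coding RNAs were also in genes without a read in PBS. MIR3142HG, the host transcript of the miR-146a locus (chromosome 5 from 160438594 to 160487426, plus strand), stood at 0 reads in PBS and at 15.7, 14.6 and 18.5 CPM in SUC, at least 268-fold higher. ENSG00000287097 (chromosome 6) reached 6.69 to 9.24 CPM and HPYR1 6.62 to 7.92 CPM, again from 0 reads in PBS, at least 135-fold and 120-fold higher.

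**Figure D2:**
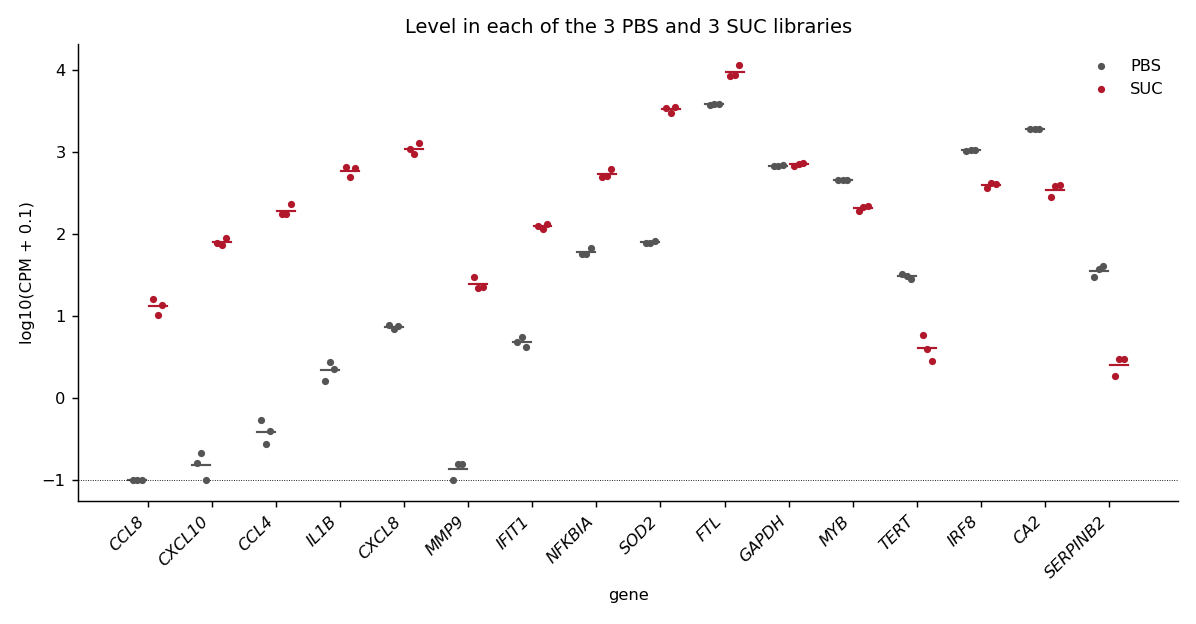
Points give log10(CPM + 0.1) of 16 genes in each of the 3 PBS (grey) and 3 SUC (red) libraries, with short lines at the mean of the plotted values, and the dotted line marks 0 reads. The groups are apart for every gene shown except GAPDH, and the distance between them is widest for genes that were at or near 0 in PBS.

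Among genes that were already abundant, the rises were smaller in fold but carried many reads. FTL, the ferritin light chain that stores iron, rose from 3740, 3822 and 3906 CPM to 8541, 8614 and 11616 CPM (log2 fold change 1.33, SE 0.15, adjusted p = 1.78e-06). SOD2, the mitochondrial superoxide dismutase, rose from 78.2, 76.9 and 82.3 CPM to 3433, 2960 and 3588 CPM (5.39, SE 0.12, adjusted p = 6.60e-15). SUC3 was the highest library for FTL and SOD2 alike, and neither gene's groups overlapped. TNFAIP2, a TNF-inducible gene of monocytes and endothelium, rose from 207 to 218 CPM to 1714 to 1994 CPM (3.10, SE 0.09). PKM, the pyruvate kinase of glycolysis, rose from 646 to 697 CPM to 1447 to 1605 CPM (1.19, SE 0.08). PSAP, the precursor of lysosomal saposins, rose from 600 to 605 CPM to 1267 to 1528 CPM (1.17, SE 0.10).

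The largest fall among protein-coding genes with a mean of at least 1 CPM and no overlap between groups was in SERPINB2, plasminogen activator inhibitor 2 (ENSG00000197632, chromosome 18 from 63871692 to 63903888, plus strand), from 30.3, 37.8 and 40.4 CPM in PBS to 1.78, 2.87 and 2.90 CPM in SUC (log2 fold change -3.83, SE 0.19, adjusted p = 6.92e-11). HAL, which degrades histidine, fell from 17.2, 14.8 and 11.3 CPM to 1.71, 1.5 and 1.91 CPM (-3.07, SE 0.24, adjusted p = 2.01e-08). GPA33, a cell surface antigen, fell from 12 to 13.2 CPM to 0.956 to 2.19 CPM (-2.94, SE 0.26). That all 3 SUC libraries lay below all 3 PBS libraries in each of them was a condition of their choice. MAP2K6, the kinase upstream of p38, fell from 4.03, 4.35 and 3.22 CPM to 0.410, 0.375 and 0.396 CPM (-3.27, SE 0.45, adjusted p = 2.15e-05). KCNF1, TCF23, RAB37 and SRGAP3, all below 5 CPM in PBS, fell by 3.39, 3.32, 3.31 and 3.21 on the log2 scale. The largest falls among long non-coding RNAs were in ENSG00000223872 and ENSG00000234210, which lie close together on chromosome 7, and in FLJ36000, all from under 3.3 CPM and by 4.16, 3.57 and 3.56 on the log2 scale.

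The most abundant falling genes lost most of a high level. CA2, carbonic anhydrase 2, fell from 1920, 1923 and 1940 CPM to 282, 382 and 398 CPM (log2 fold change -2.45, SE 0.13, adjusted p = 1.48e-10). The long non-coding RNA ENSG00000227706 (chromosome 6 from 67878316 to 67889339, minus strand) fell from 1318 to 1444 CPM to 283 to 352 CPM (-2.12, SE 0.10). IRF8, a transcription factor of monocyte and dendritic cell development, fell from 1030, 1063 and 1057 CPM to 361, 425 and 404 CPM (-1.40, SE 0.09, adjusted p = 1.43e-09). PLPPR3, a lipid phosphatase-related membrane protein, fell from 687 to 721 CPM to 204 to 319 CPM (-1.41, SE 0.17). NUP210, a nuclear pore protein, fell from 659 to 729 CPM to 254 to 398 CPM (-1.06, SE 0.18), and without SUC3 its change was -0.89, short of the 2-fold threshold.

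In lists of genes by function, 248 of 780 tested genes rose and 22 fell, and each count that follows stands against the 6.82% up and 3.06% down of all tested genes. Of 24 tested sensors of bacterial products, 11 rose and 0 fell (median log2 fold change 0.97). With any 1 library left out 8 to 10 rose, and with DESeq2 10 rose. TLR2, the receptor for bacterial lipoproteins, stood at 75.2, 65.3 and 65.1 CPM in PBS and 128, 127 and 119 CPM in SUC. The groups did not overlap, but its log2 fold change of 0.86 (SE 0.08, adjusted p = 2.22e-07) was short of the 2-fold threshold. Of its partners, TLR1 rose by 1.31 (SE 0.20) and TLR6 had a log2 fold change of 0.62 (adjusted p = 0.0122). CD14, a co-receptor, rose from 3.20, 3.59 and 4.53 CPM to 6.08, 8.0 and 9.90 CPM (1.08, SE 0.19), and the call was lost without PBS1 (0.98) or SUC3 (0.90). NOD2, the sensor of muramyl dipeptide, rose from 9.06 to 10.6 CPM to 21.7 to 31.1 CPM (1.43, SE 0.12). CD36, a scavenger receptor that helps TLR2, was the most abundant riser of the list, at 46.2 to 49.0 CPM in PBS and 139 to 166 CPM in SUC (1.69, SE 0.09). The largest rise was in PGLYRP2, a peptidoglycan amidase, from 3 reads to 108 reads, a ratio with an exact interval of 12.9 to 191. TLR7 and TLR8, which sense RNA in endosomes, rose from 0.118 to 0.358 CPM to 3.04 to 4.0 CPM and from 0.0640 to 0.119 CPM to 1.85 to 2.32 CPM.

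Downstream of the receptors, 6 of 24 tested adaptors and kinases rose and 1 fell (median 0.38). MYD88, the adaptor shared by most Toll-like receptors, rose from 42.9, 44.3 and 42.4 CPM to 152, 141 and 131 CPM (1.71, SE 0.08, adjusted p = 4.08e-11). IRAK2, a kinase that sustains the signal, rose from 1.66, 2.06 and 1.85 CPM to 34.3, 27.9 and 31.9 CPM (4.07, SE 0.15). TRAF3, an adaptor of both branches, rose from 86.9 to 91.7 CPM to 169 to 198 CPM (1.06, SE 0.08). RIPK2, the kinase that NOD2 uses, and IRAK3, an inhibitor of the pathway, did not pass the test (0.34, adjusted p = 0.0726, and 0.40, adjusted p = 0.0502). The member that fell was SIGIRR, a negative regulator at the receptor, from 31.7 to 36.8 CPM to 8.27 to 16.5 CPM (-1.59, SE 0.22).

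Of the 11 NF-kappa B subunits and inhibitors, 8 rose and 0 fell (median 2.42). NFKBIA, the inhibitor that NF-kappa B itself induces, rose from 57.1, 56.7 and 66.9 CPM to 495, 516 and 615 CPM (3.17, SE 0.14, adjusted p = 8.03e-12). NFKB1 rose from 58.3 to 64.1 CPM to 314 to 347 CPM (2.42, SE 0.09), and NFKBIZ, a nuclear cofactor, had the largest rise of the list, from 7.17 to 8.41 CPM to 141 to 165 CPM (4.28, SE 0.10). RELA, the main transactivating subunit, was at a log2 fold change of -0.03. The genes that restrain NF-kappa B or destroy cytokine mRNA moved with them, with 16 of 26 up and 2 down (median 1.88). TNFAIP3, a ubiquitin editor whose promoter is printed above, rose from 16, 12.5 and 16 CPM to 545, 502 and 452 CPM (5.07, SE 0.12, adjusted p = 6.60e-15). ZC3H12A, an RNase that cuts cytokine mRNA, rose from 13.1 to 15.9 CPM to 307 to 325 CPM (4.46, SE 0.09). BIRC3, a ubiquitin ligase, had the largest rise, from 0.064 to 0.294 CPM to 27.5 to 29.3 CPM (7.23, SE 0.21). DUSP1, a phosphatase of MAP kinases, and SOCS3, an inhibitor of cytokine receptors, rose by 3.12 and 2.90. The 2 that fell were SOCS2 and CISH (-2.78 and -1.11), both inhibitors of STAT5 signalling.

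Cytokines rose widely, with 16 of 24 tested genes up and 0 down (median 2.58, or 2.23 with the 4 genes without a read in PBS set at their lower limits). The count was 14 or 15 with any 1 library left out, and 13 of 17 with the 6 libraries alone, where IL6 was not fitted. IL1B (ENSG00000125538, chromosome 2 from 112829751 to 112836816, minus strand) stood at 1.54, 2.71 and 2.21 CPM in PBS and at 666, 498 and 633 CPM in SUC. Its log2 fold change was 8.11 (SE 0.19, adjusted p = 6.60e-15), a 276-fold rise, and the groups were far apart. IL6 had 0 reads in PBS and 0.547, 0.437 and 0.660 CPM in SUC, 25 reads in all, at least 8.99-fold higher. EBI3, a subunit of IL-27 and IL-35, had the largest rise of the list, from 0.576, 0.823 and 0.537 CPM to 243, 190 and 265 CPM (8.47, SE 0.24, adjusted p = 4.85e-14). IL23A, a subunit of IL-23, rose from 2.47 to 3.52 CPM to 27.2 to 45.9 CPM (3.70, SE 0.22), and IL1A had 3 reads in PBS and 256 in SUC, a ratio with an interval of 31.2 to 449. IL10, the anti-inflammatory cytokine, had too few reads to test (0 in PBS, 8 in SUC).

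Chemokines were the list with the highest median, with 23 of 28 tested genes up and 0 down (5.24, or 5.02 with the 3 genes without a read in PBS at their limits). CXCL8, which attracts neutrophils (ENSG00000169429, chromosome 4 from 73740519 to 73743716, plus strand), was the most abundant, at 7.81, 6.88 and 7.45 CPM in PBS and 1095, 959 and 1283 CPM in SUC. Its log2 fold change was 7.23 (SE 0.16, adjusted p = 5.45e-15), a 151-fold rise with no overlap. CCL2, the main attractant of monocytes, rose from 1.22, 0.765 and 1.25 CPM to 130, 110 and 140 CPM (6.87, SE 0.21). CXCL1, a neutrophil attractant, rose from 0.823 to 1.01 CPM to 32.2 to 39.5 CPM (5.35, SE 0.21). CCL20, which attracts Th17 and dendritic cells, rose from 0.192 to 0.417 CPM to 12.7 to 17.6 CPM (5.72, SE 0.30). CCL3 rose by 4.41 (SE 0.32) and its copy CCL3L3 by 5.01, with reads that may be split between them. The 5 tested chemokines not called were CCL13, CCL22, CCL23, CCL28 and CXCL16, with log2 fold changes of 3.25, 0.15, -0.06, -0.45 and 0.10.

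In the TNF superfamily, 12 of 28 tested ligands and receptors rose and 0 fell (median 0.92). TNF rose from 18.3, 19.0 and 17.3 CPM to 296, 359 and 400 CPM (4.27, SE 0.14, adjusted p = 2.28e-13). TNFRSF18, a co-stimulatory receptor, rose from 8 reads to 793 reads (6.68, SE 0.44), and TNFRSF9, another, from 0.176 to 0.656 CPM to 16.2 to 18.9 CPM (5.60, SE 0.23). CD40, through which T cells license antigen-presenting cells, rose from 4.99, 4.12 and 4.29 CPM to 85.7, 74.5 and 91.5 CPM (4.23, SE 0.13). It is also one of 17 of 21 co-stimulation and dendritic-type maturation genes that rose, with 0 down (median 3.34, or 3.18 with CCR7 at its limit). SLAMF7 had the largest rise there, from 0.704, 0.765 and 0.775 CPM to 221, 160 and 182 CPM (7.95, SE 0.16, adjusted p = 1.03e-15). ICAM1, the ligand of LFA-1, rose from 1.07 to 1.73 CPM to 170 to 223 CPM (7.02, SE 0.18). CD83, a maturation marker, rose from 8.0 to 12.2 CPM to 91.3 to 122 CPM (3.37, SE 0.17), and CD80 had 2 reads in PBS and 226 in SUC, an interval of 33.4 to 1013-fold. CCR7, which guides cells to lymph nodes, had 0 and 22 reads. FSCN1, an actin bundler, rose from 549 to 568 CPM to 1073 to 1207 CPM (1.02), and lost the call without SUC3 (0.96).

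Interferon-stimulated genes were the list with the highest share called, 36 of 37 up and 0 down, against 6.82% of all tested genes. Their median log2 fold change was 3.03, they spanned 0.67 (BST2, the member not called) to 4.69 (IFIT1), and in all 37 the SUC libraries lay above the PBS libraries, as in 24.2% of all tested genes. IFIT1, an RNA-binding antiviral protein (ENSG00000185745, chromosome 10 from 89392546 to 89406487, plus strand), rose from 4.8, 5.53 and 4.17 CPM to 127, 115 and 132 CPM (4.69, SE 0.13, adjusted p = 6.05e-14). MX1, an antiviral GTPase, rose from 5.44, 5.47 and 4.23 CPM to 84.1, 68.7 and 76.2 CPM (3.92, SE 0.12). ISG15, a ubiquitin-like modifier, rose from 30.2 to 33.7 CPM to 200 to 346 CPM (3.02, SE 0.24), and SUC3 was the library at 346 CPM. OASL rose by 3.62 (SE 0.12). The interferon genes themselves were low. IFNB1 had 5 reads in PBS and 31 in SUC (2.64, SE 0.86, adjusted p = 0.0269), short of the threshold but past it without a filter on low counts (adjusted p = 0.00352), and IFNL1 had 0 and 16 reads, too few to test. Of the 4 tested interferon receptor chains, IFNGR2 rose from 38.4 to 40.9 CPM to 126 to 141 CPM (1.73, SE 0.08).

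Of 13 guanylate-binding and other genes typical of interferon-gamma, 9 rose and 1 fell (median 1.75). GBP1 had 2 reads in PBS and stood at 4.30, 3.06 and 4.03 CPM in SUC. IDO1, which breaks down tryptophan, had 0 reads in PBS and stood at 1.43, 1.31 and 1.06 CPM in SUC, at least 20.9-fold higher. IRF1 rose from 21.0 to 22.2 CPM to 47.8 to 54.0 CPM (1.23, SE 0.10), and the member that fell was IRF8, given above. Antigen presentation moved less in fold: 3 of 20 MHC class I genes rose (median 0.50) and 1 of 12 class II genes (median 0.42), with 0 down in either list. Without SUC1 the class I count was 5. By adjusted p without the fold threshold, 9 class I and 2 class II genes were up (12.4% of all tested genes). All SUC libraries lay above all PBS libraries in 15 of the 20 and 5 of the 12 (24.2% of all tested genes). Summed class I levels were 4027 to 4375 CPM in PBS and 5906 to 7205 CPM in SUC, and class II levels 384 to 408 and 448 to 503 CPM. TAP1, the peptide transporter, rose from 48.5, 48.6 and 47.9 CPM to 240, 215 and 223 CPM (2.22, SE 0.07), and TAPBP by 1.2 (SE 0.15). HLA-B had a log2 fold change of 0.93 (adjusted p = 0.000245), short of the fold threshold except without SUC1 (1.04), and PSMB9, a subunit of the immunoproteasome, 0.35 (adjusted p = 0.123). HLA-DRA rose from 2.43 to 3.70 CPM to 5.37 to 7.04 CPM (1.03), a call lost without PBS1 (0.89) or SUC1 (0.96).

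**Figure D3:**
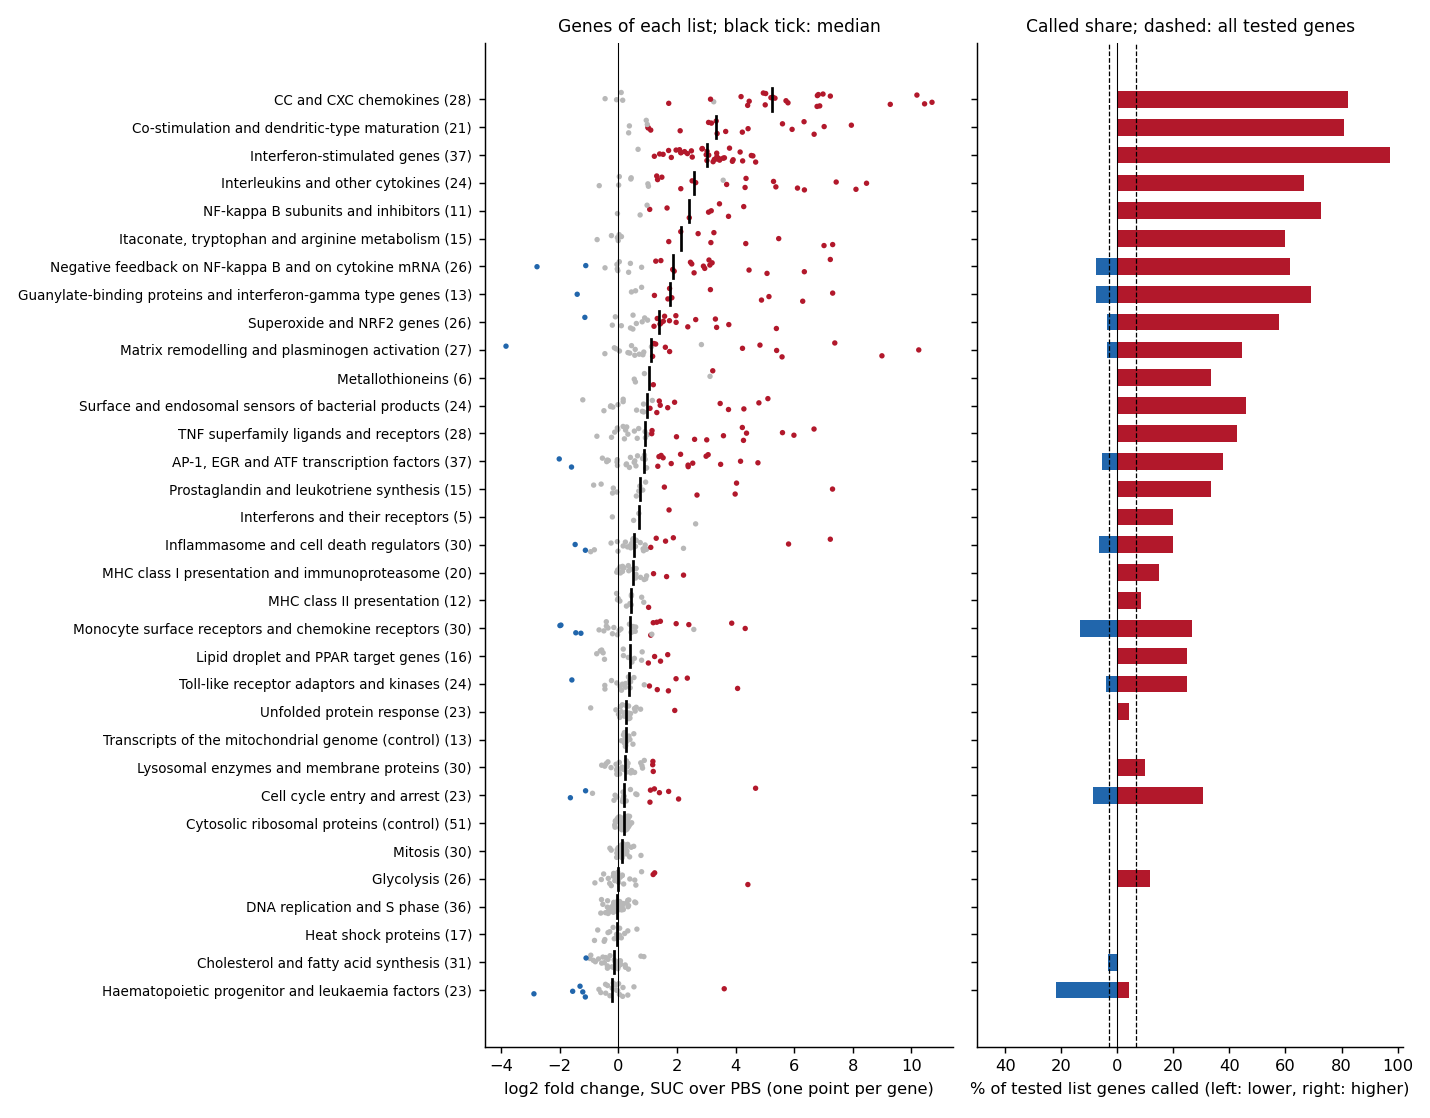
On the left each point is the log2 fold change (SUC over PBS) of 1 tested gene of a list, red where called up and blue where called down, with a black tick at the list's median and the number of tested genes in brackets; on the right, bars give the percentage of those genes called up (right) or down (left), and dashed lines the 6.82% and 3.06% of all tested genes. Chemokines, co-stimulation and interferon-stimulated genes stand at the top, while DNA replication, mitosis, heat shock and ribosomal protein genes have no call.

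Of 37 transcription factors of the AP-1, EGR, ATF, C/EBP and related families, 14 rose and 2 fell (median 0.89). ATF3, a stress-induced repressor, rose from 3.35 to 4.23 CPM to 38.7 to 51.1 CPM (3.49, SE 0.14). EGR1 fell short of the fold threshold at -0.40 (adjusted p = 0.00634). CEBPB, BATF and FOSL1 had log2 fold changes of -0.04, -0.03 and 0.38 with adjusted p of 0.921, 0.928 and 0.0231, and the signs for CEBPB and BATF turned positive without SUC1 or SUC2, and for CEBPB also without PBS3. The 2 that fell were CEBPE and FOSL2 (-2.02 and -1.60), of which CEBPE lost its call without PBS1, PBS2, SUC1 or SUC2, with adjusted p up to 0.0227.

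Of 30 monocyte surface and chemokine receptors, 8 rose and 4 fell (median 0.41). FCAR, the IgA receptor, rose from 0.656 to 0.706 CPM to 13.4 to 14.6 CPM (4.33, SE 0.14), and SIRPA, which binds CD47, rose from 114 to 118 CPM to 295 to 334 CPM (1.43, SE 0.07). CXCR4, which holds cells in the marrow, fell from 83.3, 88.8 and 84.7 CPM to 29.8, 33.1 and 31.0 CPM (-1.45, SE 0.08, adjusted p = 3.38e-10). SELPLG, the ligand of P-selectin, CLEC12A and CXCR2 fell by 1.99, 1.96 and 1.28. CCR2, the receptor for CCL2, stood at 298 to 319 CPM in PBS and 296 to 304 CPM in SUC, overlapping (-0.03, adjusted p = 0.778), and its sign turned without PBS2. Among 30 inflammasome and cell death genes, 6 rose and 2 fell (median 0.54). BCL2A1, an anti-apoptotic gene, rose from 0.384, 0.529 and 0.775 CPM to 28.7, 26.9 and 41.0 CPM (5.81, SE 0.33), while BCL2 fell from 183, 170 and 164 CPM to 64.6, 66.2 and 55.3 CPM (-1.47, SE 0.11). CFLAR, an inhibitor of caspase 8, rose by 1.29 and BID by 1.61. NLRP3, which forms the inflammasome that matures IL-1β, stood at 161 to 166 CPM in PBS and 158 to 171 CPM in SUC (-0.01, adjusted p = 0.926), a difference whose sign changed without PBS2, SUC2 or SUC3 and without a filter on low counts. The other gene that fell was NLRP12 (-1.13).

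Oxidative and iron genes rose in number: 15 of 26 superoxide and NRF2 genes were up and 1 was down (median 1.37). Besides SOD2 and FTL, HMOX1, which degrades haem, rose from 41.3, 38.6 and 40.4 CPM to 491, 521 and 630 CPM (3.77, SE 0.12, adjusted p = 2.75e-13). FTH1, the ferritin heavy chain, rose from 155 to 176 CPM to 1342 to 1890 CPM (3.31, SE 0.19), and NQO1, a quinone reductase, by 1.42 (SE 0.11). Catalase, CAT, was the member that fell (-1.14). Of 15 genes of itaconate, tryptophan, arginine and related metabolism, 9 rose and 0 fell (median 2.13). ACOD1, which makes itaconate, had 0 reads in PBS and 47 in SUC, at least 16.9-fold higher. KYNU, of the kynurenine pathway, rose from 15.5 to 16.9 CPM to 130 to 150 CPM (3.16, SE 0.11), and GCH1, of tetrahydrobiopterin synthesis, rose by 3.26 (SE 0.15). Of 6 metallothioneins, which bind zinc and copper, 2 rose (median 1.04): MT1E by 1.19 and MT2A from 16.8, 16.2 and 18.8 CPM to 163, 114 and 207 CPM (3.22, SE 0.27), with MT1G at 0.54 (adjusted p = 0.144). Without SUC3 MT1E was at 0.96 and 1 gene of the list was up. Metallothionein and ferritin genes have close copies, which makes their counts less certain.

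Prostaglandin and leukotriene genes rose in 5 of 15 and fell in 0 (median 0.73). PTGS2, the inducible cyclooxygenase, rose from 0.835 to 1.09 CPM to 6.15 to 6.87 CPM (2.68, SE 0.23), and ALOX5AP from 23.0 to 29.9 CPM to 72.3 to 85.5 CPM (1.57, SE 0.15). PLA2G7, which hydrolyses platelet-activating factor, had 1 read in PBS and 204 in SUC, and PTGES had 1 and 20, with its call lost without PBS2 (log2 fold change 3.53). In matrix remodelling and plasminogen activation, 12 of 27 rose and 1 fell, SERPINB2 (median 1.13). F3, tissue factor, rose from 60.5, 58.7 and 57.2 CPM to 142, 140 and 144 CPM (1.27, SE 0.07), and THBD, thrombomodulin, from 272 to 285 CPM to 606 to 691 CPM (1.21, SE 0.08).

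GAPDH, the reference gene of the study's PCR, stood at 668, 686 and 705 CPM in PBS and 683, 723 and 745 CPM in SUC. The groups overlapped (log2 fold change 0.06, SE 0.07, adjusted p = 0.543). Of 26 glycolysis genes 3 rose and 0 fell, and the list's median of -0.01 changed sign when any 1 library was left out. SLC2A6, a sugar transporter of the lysosome, rose from 16.8 to 20.2 CPM to 373 to 423 CPM (4.42, SE 0.11), whereas HK2 had a log2 fold change of -0.30 (adjusted p = 0.0843) and PFKFB3 of 0.56 (adjusted p = 0.000219). Of 31 cholesterol and fatty acid synthesis genes 0 rose and 1 fell (median -0.15), with 2 down without PBS3 or without SUC1. By adjusted p without the fold threshold, 9 were down and 1 up, in 15 of the 31 all SUC libraries lay below all PBS libraries (22.4% of all tested genes), and their summed level was 3588 to 3793 CPM in PBS and 2472 to 2667 CPM in SUC. The gene called was SCD, a fatty acid desaturase, from 222 to 234 CPM to 95.8 to 117 CPM (-1.10, SE 0.12), while ABCA1 was at 0.77 (adjusted p = 0.0110). Of 16 lipid droplet and PPAR target genes 4 rose and 0 fell (median 0.40), with 2 up without PBS1 and 2 without SUC3.

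None of 36 DNA replication genes and none of 30 mitosis genes was called (medians -0.05 and 0.12). DESeq2 called 0 of them too. At an unadjusted p of at most 0.05 edgeR gave 19 and 9 of them, beside 40.4% of all tested genes, and their log2 fold changes ran from -0.60 to 0.59 and from -0.29 to 0.77. By edgeR's adjusted p without the fold threshold, 3 replication genes were up and 6 down, and 4 mitosis genes were up and 0 down (12.4% and 9.15% of all tested genes). Summed levels in PBS and SUC were 4907 to 5000 and 4284 to 4415 CPM for replication, and 3354 to 3459 and 3532 to 3785 CPM for mitosis. MKI67, a marker of cycling cells, stood at 467, 434 and 388 CPM in PBS and 620, 478 and 310 CPM in SUC, overlapping (0.13, adjusted p = 0.761), and was at -0.12 without SUC1. MCM2 and CDC6, which license replication, were at -0.35 (adjusted p = 0.0182) and -0.11 (adjusted p = 0.397). CDKN1A, the p21 inhibitor of cell cycle kinases, rose from 59.4, 60.4 and 64.6 CPM to 246, 245 and 275 CPM (2.06, SE 0.08, adjusted p = 3.83e-12). BTG2, an antiproliferative gene, rose from 15.9, 17.2 and 15.8 CPM to 404, 414 and 439 CPM (4.68, SE 0.08), with an adjusted p of 3.49e-16 that was the smallest of all genes. They were among 7 of 23 cell cycle entry and arrest genes that rose, with CDKN1C and MXI1 falling (-1.64 and -1.12, list median 0.19). The call of CDKN1C was lost without PBS1, PBS2, PBS3, SUC1 or SUC2 and that of MXI1 without SUC3 (-0.99), so that 1 fall was left each time. MYC had a log2 fold change of -0.88 (SE 0.09, adjusted p = 4.48e-07), short of the fold threshold.

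Factors of blood progenitors and leukaemia held more falls than rises, 5 down and 1 up of 23 (median -0.21), against 3.06% down and 6.82% up among all tested genes. TERT, the catalytic subunit of telomerase (ENSG00000164362, chromosome 5 from 1253147 to 1295068, minus strand), fell from 32.4, 31.2 and 28.0 CPM to 5.74, 3.94 and 2.77 CPM (-2.88, SE 0.20, adjusted p = 4.45e-09). MYB, a factor that keeps progenitors cycling, fell from 458, 452 and 459 CPM to 192, 215 and 221 CPM (-1.13, SE 0.07, adjusted p = 1.91e-09). In neither gene did the groups overlap. MPO, the myeloperoxidase of granules, fell by 1.31 (SE 0.18), GFI1, a transcriptional repressor, by 1.56, and GATA2, a stem cell factor, by 1.21. BCL6, a repressor, rose from 3.84 to 4.65 CPM to 48.7 to 57.9 CPM (3.61, SE 0.12), and HOXA9 was at 0.15 (adjusted p = 0.392). Of 23 unfolded protein response genes PPP1R15A alone rose (1.93, SE 0.11) and 0 fell (1 without SUC1), with ATF4 at 0.28 and TRIB3 at -0.08. Of 17 heat shock genes 0 were called, with HSPA1A at -0.48 (adjusted p = 0.0181). Of 30 lysosomal genes 3 rose, among them CTSH by 1.19 (SE 0.11), with CTSB at 0.42 and CTSL at 0.45. None of 51 ribosomal protein genes and none of 13 mitochondrial transcripts was called (medians 0.18 and 0.25), with RPLP0 at 0.23 (adjusted p = 0.205) and MT-CO1 at 0.23 (adjusted p = 0.0208). DESeq2 also called 0 in these 3 lists, and edgeR gave 8 heat shock, 4 ribosomal protein and 10 mitochondrial genes with an unadjusted p not above 0.05, beside 40.4% of all tested genes.

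The cells given S. aureus vesicles from the poly-lysine precipitation differed from the SUC cells in 1 called gene of 17198 (0.00581%), at the same species and dose and with no shared library. At an unadjusted p of at most 0.05, 1000 genes differed (5.81%). The gene called was PLIN2, a coat protein of lipid droplets (ENSG00000147872, chromosome 9 from 19108375 to 19149290, minus strand). It stood at 104, 84.4 and 115 CPM in SUC and 250, 216 and 203 CPM in SPL, against 47.3, 50.3 and 51.4 CPM in PBS. SUC lay above PBS and below SPL without overlap (5.95% of all tested genes lay wholly above SPL and 6.87% wholly below), with a log2 fold change of -1.14 against SPL (SE 0.12, adjusted p = 0.000578) and 1.02 against PBS (SE 0.12). The second of these fell short of 2-fold without PBS1 (0.99) or SUC3 (0.92). PDK4, a brake on pyruvate oxidation, stood at 2.12, 2.0 and 2.51 CPM in SUC and 10.5, 7.34 and 8.89 CPM in SPL (-2.01, SE 0.27, adjusted p = 0.0121), short of the threshold here and past it with DESeq2, without a filter and with the 6 libraries alone. THBS1, thrombospondin 1, which stood at 22.8 to 33.8 CPM in SUC and 48.3 to 59.1 CPM in SPL (-0.96, adjusted p = 0.0194), was past it without SUC1 (-1.16). IL1B, CXCL8, IFIT1 and NFKBIA differed between SUC and SPL by -0.52 (SE 0.13), -0.14 (SE 0.12), -0.22 (SE 0.11) and 0.04 (SE 0.12) on the log2 scale, with adjusted p from 0.718 to 0.966. IL1B stood at 810 to 950 CPM in SPL, wholly above SUC. List medians against SPL were -0.33 for cytokines, -0.32 for chemokines and -0.19 for interferon-stimulated genes, with no gene of them called. They were -0.07 for NF-kappa B genes, 0.06 for metallothioneins and 0.0098 over all tested genes.

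Against E. coli vesicles from the same isolation method, 132 genes were called (0.768%), 126 of them lower in SUC and 6 higher (0.0349%). Without the fold threshold 344 were lower (2.0%) and 85 higher (0.494%). The count was 24 with the 6 libraries fitted alone and 75 without SUC2. The S. aureus dose was 10 μg/mL and the E. coli dose 1 μg/mL, so species and dose cannot be told apart. Of the 132, 105 were genes that rose in SUC against PBS, 3 were genes that fell and 24 were neither, beside 6.82% up and 3.06% down among all tested genes. Both comparisons used the same SUC libraries, so their calls are not independent. Chemokines and cytokines held many of the lower genes: 12 of 28 tested chemokines and 7 of 24 cytokines were lower in SUC (median differences -1.01 and -0.97), beside 1 of 37 interferon-stimulated genes (ISG20, list median -0.51), 0 of 11 NF-kappa B genes (median -0.18) and 0.733% of all tested genes. IL12B, the p40 subunit of IL-12 and IL-23 (chromosome 5 from 159314780 to 159330863, minus strand), stood at 5.67, 3.87 and 6.60 CPM in SUC, 26.4, 39.0 and 43.6 CPM in EUC and 0.064 to 0.176 CPM in PBS. All SUC libraries lay below all EUC libraries, as in 9.19% of all tested genes, with 7.56% wholly above (log2 fold change -2.76, SE 0.22, adjusted p = 2.73e-06).

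IL23A stood at 45.4, 27.2 and 45.9 CPM in SUC and at 173, 201 and 240 CPM in EUC (-2.37, SE 0.17). Its adjusted p of 2.05e-06 was the smallest of this comparison, shared with LAMP3 and THBS1. ETV3L stood at 4.30, 1.44 and 3.50 CPM in SUC and 15.9 to 16.7 CPM in EUC (-2.41, SE 0.25). CXCL13, a B cell attractant, and COL5A3, a collagen chain, were lower by 2.21 and 2.74 on the log2 scale, each at or below 1.31 CPM in SUC, and both calls were lost without SUC2 (-2.58 and -2.60), SUC3 (-2.07 and -2.28) or EUC2 (-2.20 and -2.67), and that of CXCL13 also without SUC1 (-2.04). Among the genes with the most reads, IL1B was lower in SUC than in EUC (-1.53, SE 0.13, adjusted p = 4.38e-06). CXCL8, IFIT1 and SOD2 differed by -0.82, -0.75 and -0.82 (adjusted p = 0.000454, 0.000340 and 0.000142), short of the fold threshold, and NFKBIA by -0.18 (adjusted p = 0.588).

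The 6 genes higher in SUC than in EUC were PDK4 and 5 genes that were lower in both vesicle groups than in PBS by their means. PDK4 stood at 2.0 to 2.51 CPM in SUC, 0.197 to 0.976 CPM in EUC and 0.832 to 1.49 CPM in PBS (2.01 against EUC, SE 0.37, adjusted p = 0.00300), and its call was lost without SUC2 (2.09), SUC3 (1.91) or EUC2 (1.90). MIR9-3HG, the host transcript of a miR-9 gene, stood at 12.7, 12.6 and 10.7 CPM in SUC, 4.16, 6.02 and 4.47 CPM in EUC and 43.3 to 44.8 CPM in PBS (1.3, SE 0.14, adjusted p = 4.33e-05). DHRS9, a retinol dehydrogenase, stood at 57.5 to 76.4 CPM in SUC, 29.6 to 38.4 CPM in EUC and 159 to 163 CPM in PBS (1.01, SE 0.12). PDE7B, a cAMP phosphodiesterase, the long non-coding RNA ENSG00000240859 and CCDC9B were higher by 1.14, 1.06 and 1.02. These last calls were lost without SUC2 (0.95, 1.07 and 0.93), and that of PDE7B also without SUC3 (1.15) or EUC2 (0.91), that of ENSG00000240859 without EUC1 (0.92) and that of CCDC9B without EUC2 (0.97) or EUC3 (0.99). With the 6 libraries fitted alone, the calls of ETV3L, CXCL13, COL5A3, PDK4, MIR9-3HG, PDE7B, ENSG00000240859 and CCDC9B were lost, while those of IL12B and IL23A were kept.

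**Figure D4:**
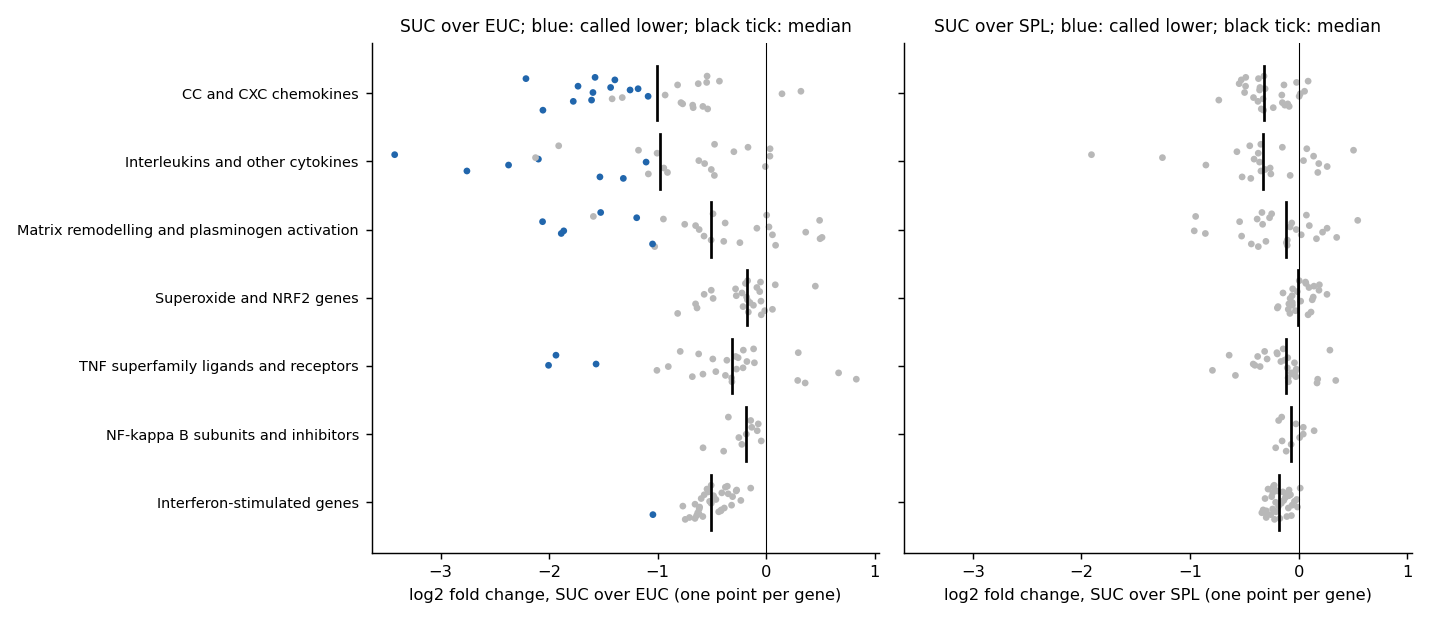
Each point is the log2 fold change of 1 tested gene of 7 lists between SUC and EUC (left) or SUC and SPL (right), blue where called lower in SUC and grey where not called, with a black tick at the list's median. The chemokine and cytokine points reach furthest to the left against EUC, with medians of -1.01 and -0.97, and no gene of these lists is called against SPL.

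**Figure D5:**
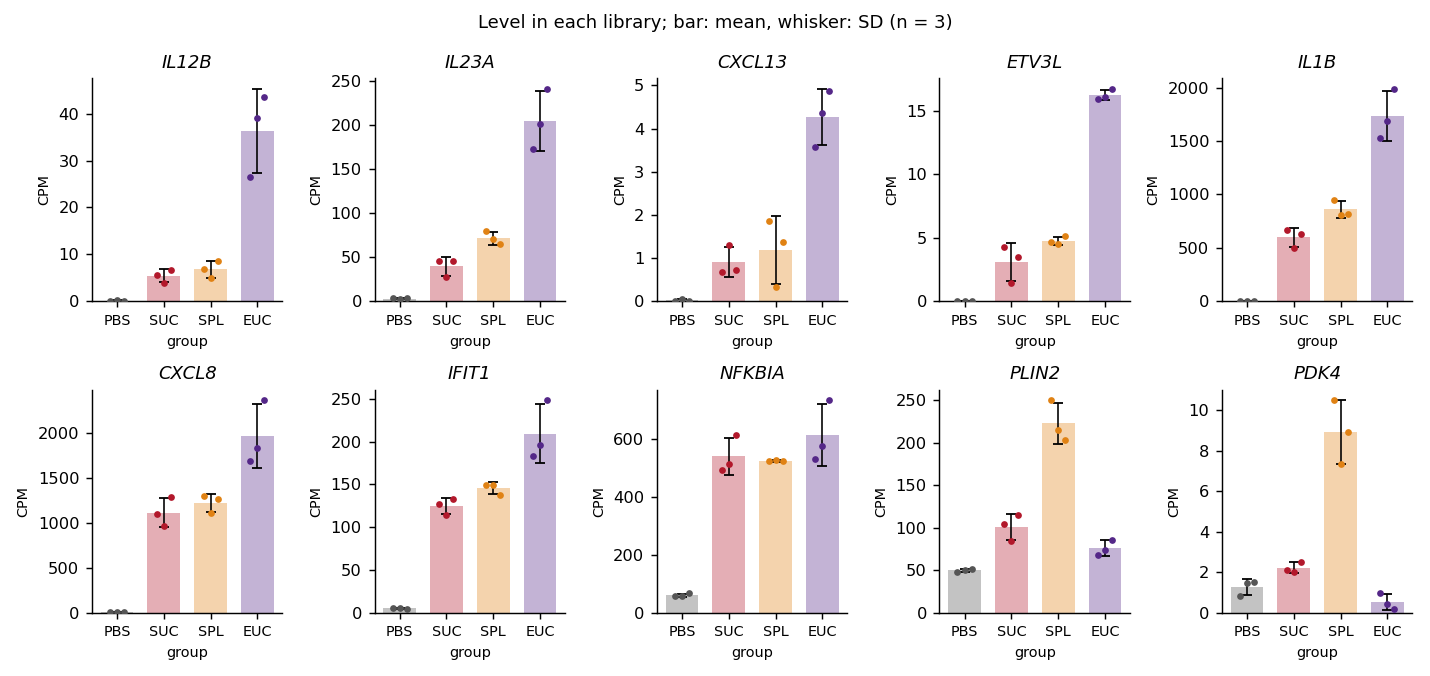
Bars give the mean CPM, whiskers the SD (n = 3 libraries) and points each library, for 10 genes in PBS, SUC, SPL and EUC, with a separate linear axis from 0 for each gene. IL12B, IL23A and ETV3L are several-fold lower in SUC than in EUC, NFKBIA overlaps between all vesicle groups, and PLIN2 and PDK4 are highest in SPL.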

How the data were processed

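Total RNA of THP-1 cells was made into libraries with the NEBNext Ultra RNA kit. The authors deposited a table of read counts per gene, whole numbers that had not been normalized. Their processing notes name FastQC 0.11.5, HISAT2 2.1.0, StringTie 1.3.3b, featureCounts and DESeq 1.28.0 with genome hg38. Strand setting and annotation release were not given in the sources used here. Reads of antisense and overlapping genes and of close paralogs may therefore be shared. The table held 60286 genes, of which 27455 had no read in the SUC and PBS libraries.

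Counts were tested with edgeR 4.0.16 (R 4.3.3): filterByExpr (17198 genes kept, 2037 of them named by ID only), TMM scaling, 1 quasi-likelihood fit over all 15 libraries by group, and Benjamini-Hochberg adjustment over all genes. The study's own analysis used DESeq2, which was run here as an alternative (1.42.0). Levels are CPM on TMM-scaled totals, and the SE is the log2 fold change divided by the square root of F. The scripts were tested on simulated data. Intervals are 95% exact intervals of the ratio of counts and, like the limit of 3 reads for a count of 0, cover counting error only. Coordinates are from GENCODE on GRCh38 and promoters from RefSeq, where 760 of 1173 up-regulated genes had one.

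The members, the 38 gene lists (899 genes) and the tests were chosen with earlier results of these data known. Named genes were the PCR genes of the study, the 8 largest non-overlapping protein-coding and 3 long non-coding changes each way at a mean of at least 1 CPM, the 5 most abundant called genes each way, key, largest and most abundant called members of each list, and up to 5 called genes each way against SPL and EUC. Other genes named, such as FTH1, THBS1, DHRS9, TLR7, TLR8, SIGIRR, RELA, SOCS2, CISH, GFI1, GATA2, marker genes and list members given as the few that fell or were not called, were chosen after their values were seen. A few genes that the rule would name are not reported here. Alternatives were DESeq2, RLE scaling, no filter, a mean of at least 1 CPM, the 6 libraries alone, a replicate block, glmTreat, no fold threshold and leaving out each library.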

Additional observations from a re-analysis of the deposited data

Results flagged for a closer look

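Each item here is given because SUC and another vesicle group, compared directly, differed in a test of the difference itself (edgeR's quasi-likelihood test, Benjamini-Hochberg adjusted). Against SPL, 1 gene was called, PLIN2 (-1.14 on the log2 scale, adjusted p = 0.000578), with no overlap between the 3 libraries of each group. Against EUC, 132 genes were called. Among those named here, on the log2 scale, the lower in SUC were IL12B at -2.76, COL5A3 at -2.74, ETV3L at -2.41, IL23A at -2.37 and CXCL13 at -2.21. Those higher in SUC were PDK4 at 2.01, MIR9-3HG at 1.3, PDE7B at 1.14, ENSG00000240859 at 1.06 and CCDC9B at 1.02. DHRS9 at 1.01 was the other gene called higher. Genes were named only where the SUC and EUC libraries did not overlap, which held for 7.56% of all tested genes in the higher and 9.19% in the lower direction. Species and dose differ together between SUC and EUC and cannot be told apart.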

How the results depend on the processing

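Without the fold threshold 2124 genes were up and 1573 down in SUC against PBS (57.5% of calls up, against 69.0%) and 429 differed against EUC, and with glmTreat, which tests against the 2-fold threshold itself, 685 were up and 122 down (84.9% up), 7 differed against EUC and 0 against SPL. With the 6 libraries compared alone, 15899 genes were tested against PBS (66.1% of calls up), and 24 genes differed against EUC. Against PBS, 13 of 17 cytokines, 22 of 26 chemokines and 15 of 18 co-stimulation genes then rose. So did 7 of 13 itaconate, tryptophan and arginine genes, and interferon-stimulated genes stayed at 36 of 37. Against SPL, 2 genes differed with DESeq2, without a filter on low counts, with the 6 libraries alone (PLIN2 and PDK4 in each) and without SUC1 (PLIN2 and THBS1). Leaving out 1 library at a time gave 1085 to 1156 up and 463 to 495 down against PBS, 1 to 2 against SPL and 75 to 149 against EUC, with 75 without SUC2. DESeq2 gave 1223 up, 552 down and 176 against EUC. Genes that were not called changed sign near 0. With 1 library left out, NLRP3 ran from -0.044 to 0.018 (0.0021 without PBS2, 0.018 without SUC2, 0.0061 without SUC3), CCR2 from -0.051 to 0.0031 (without PBS2), CEBPB from -0.30 to 0.11 (0.029 without PBS3, 0.11 without SUC1, 0.074 without SUC2), BATF from -0.19 to 0.081 (0.081 without SUC1, 0.022 without SUC2) and MKI67 from -0.12 (without SUC1) to 0.35, on the log2 scale. Without a filter NLRP3 was at 0.0025. The single-gene values followed through all alternatives did not take in every gene named here. Of these values 2091 kept their direction and their side of the threshold, 64 lost the threshold (29 of them under glmTreat), 3 gained it and 11 changed sign. Genes not fitted in a setting, such as IL6 with the 6 libraries alone, were not counted as lost. Calls of further list members, such as SIGIRR, CISH and GATA2 under glmTreat, were lost too and are not in these counts. The cause was not tested. The replicate numbers are not known to pair samples: deviations of same-numbered SUC and PBS libraries correlated at 0.14, -0.016 and 0.13, those of SUC and SPL at 0.093, -0.012 and 0.032 and those of SUC and EUC at 0.39, 0.050 and 0.52, not every library correlated best with its own number, and with the number as a replicate block 1154 genes were up and 523 down, with 1 against SPL and 121 against EUC. Genes with few reads in PBS limit the precision of the largest folds.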

Other observations

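Families grouped by gene symbol, after their values were seen and given without a test (some members are also in the lists), also held called genes. Each family count stands against the 6.82% up and 3.06% down of all tested genes. Of 27 tested interleukin receptor chains 7 rose and 1 fell (median log2 fold change 0.15, against 0.0067 for all tested genes). IL10RA, which lets cells respond to IL-10, rose from 12.7 ± 1.28 to 172 ± 31.8 CPM (SD, n = 3; 3.75 on the log2 scale, SE 0.14), and IL18RAP, a chain of the IL-18 receptor, by 4.58 (SE 0.31). Of 39 receptors named GPR 11 rose and 1 fell (median 0.54), among them GPR183, which senses oxysterols, by 2.23 (SE 0.14). Of 11 S100A genes 3 rose and 0 fell: S100A8 by 1.33 (SE 0.23), S100A9 by 1.24 (SE 0.18) and S100A12 by 2.87 (SE 0.72), the first 2 of which form calprotectin. The call of S100A12 was lost without PBS2, PBS3, SUC1 or SUC3 (log2 fold change 2.30 to 2.78).

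Of 223 solute carriers 20 rose and 13 fell (median -0.12). SLC39A8, which imports zinc, rose by 1.31 (SE 0.10) and SLC43A2, a carrier of large neutral amino acids, by 2.85 (SE 0.09), while SLC11A1, which exports metal ions from phagosomes, fell (-1.22, SE 0.12). Of 46 potassium channel genes 3 rose and 6 fell (median -0.23), with KCNJ2 up by 5.67 (SE 0.25) and KCNA3 down (-2.19, SE 0.33). Of 43 TRIM genes 8 rose and 1 fell (median 0.06). Of 442 ZNF genes, most of which encode DNA-binding proteins, 2 rose and 6 fell (median -0.10), shares below the 6.82% and 3.06% of all tested genes.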
